A study of Homo sapiens with 51 samples.

Results

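The genes described here are 7 transcription factors that drive epithelial-mesenchymal transition (EMT): ZEB1, ZEB2, SNAI1, SNAI2, TWIST1, TWIST2 and PRRX1. They were chosen by symbol with earlier results of these data known, and all 7 are reported whatever their values. They are 7 of the 25421 gene symbols in the count table. The table came from PLATE-seq, in which cDNA from transcript 3′ ends is barcoded well by well and pooled, on 51 libraries of 5 human pancreatic ductal adenocarcinoma (PDA) cell lines. The libraries formed 17 groups of 3, each library from 100 ng of total RNA. KP4, PANC1 and PK45H were each sequenced untreated and after lentiviral transduction, and HPAFII and PATU8988S only untreated. Transduced cells carried an open reading frame for OVOL2, a zinc-finger transcription factor, or for mCherry, a fluorescent protein used as the negative control. In a second pair of groups each line also received M2rtTA by lentivirus, a protein that switches on doxycycline-responsive promoters. Per the labels, all transduced groups received virus at a multiplicity of infection of 2 with 8 µg/ml polybrene, and from the next day both doxycycline (0.6 µg/ml) and puromycin (2.5 µg/ml). Cells were cultured for 6 days in total. Puromycin and doxycycline were thus common to the OVOL2 and the mCherry cells, and the labels do not say whether untreated cells received them. Transductions were made in triplicate wells of a line, so p-values measure the spread between such wells, and each line stands for 1 culture history.

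EMT is the process by which epithelial cells loosen their junctions and take on mesenchymal traits. ZEB, SNAI and TWIST proteins bind E-box sequences in DNA. ZEB and SNAI proteins are zinc-finger repressors of epithelial genes such as CDH1 (E-cadherin), TWIST proteins are basic helix-loop-helix factors that act as dimers, and PRRX1 is a paired-type homeobox factor. OVOL proteins are known as repressors of ZEB1 and as guards of the epithelial state, and ZEB1 in turn represses epithelial genes. In pancreatic cancer, ZEB1 and SNAI factors have been studied as regulators of cell plasticity and spread.

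Promoter sequences of RefSeq (GRCh38.p14), each covering 250 bases before to 50 after a transcription start, matched 4 of the 7 genes: ZEB1 with 7 windows, and ZEB2, TWIST2 and PRRX1 with 1 each. They were searched on both strands for the hexamer CCGTTA, which on the other strand reads TAACGG, known as the core of OVOL sites and also matching the core of MYB sites, and for the E-box CACCTG, on the other strand CAGGTG, to which ZEB and SNAI proteins bind. The 2 motifs overlapped in none of the stretches below, which are shown because ZEB1 and ZEB2 both hold the OVOL hexamer while of the pair only ZEB1 passed the test with OVOL2. Capitals mark the motif. The first stretch is chr10:31319535-31319600 on the plus strand, in an exon of the antisense gene ZEB1-AS1 and in no exon of ZEB1 in GENCODE v29. Its motif begins at position -203, counted from the start on which its window is set.

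ZEB1, OVOL hexamer: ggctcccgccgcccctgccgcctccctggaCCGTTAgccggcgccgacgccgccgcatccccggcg
ZEB2, OVOL hexamer: gctctgcaggaaTAACGGtcctgcctcccg
ZEB1, E-box: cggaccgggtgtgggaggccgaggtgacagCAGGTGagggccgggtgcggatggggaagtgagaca

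The ZEB2 stretch, chr2:144520079-144520108 on the minus strand, lies in an annotated untranslated region, with its motif beginning 23 bases after the start. The ZEB1 E-box stretch is chr10:31318330-31318395 on the plus strand, with the motif at position -57, in an exon of ZEB1-AS1. The OVOL hexamer was present in 1 of the 7 ZEB1 windows and in 3.07% of all 35116 promoter windows of this length. E-boxes numbered 4 in 2 of the ZEB1 windows, and 20.6% of all windows held at least 1. Neither motif was found in the TWIST2 and PRRX1 windows. These matches describe letters, not bound sites.

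Library totals ran from 1165399 to 7490556 counts, and the lowest belonged to HPAFII replicate 2. Levels are given as CPM, with library totals scaled by TMM, and group values as mean ± SD (n = 3). Keratins and other ductal markers, 9 genes in all, summed to 667 to 860 CPM in untreated KP4 and to 2611 to 14452 CPM in the other untreated lines. OVOL2 counts gave 1.16 ± 0.474, 0.886 ± 0.613 and 1.47 ± 0.359 CPM in the KP4, PANC1 and PK45H libraries labelled OVOL2 without M2rtTA, and did not pass the test against mCherry (mean over lines, log2 fold change -0.09, standard error (SE) 0.46, edgeR adjusted p = 0.926). With M2rtTA they were higher by a log2 fold change of 2.15 (SE 0.44, edgeR adjusted p = 2.10e-04). Within PANC1 with M2rtTA they were 2.63 times mCherry, which did not pass (edgeR adjusted p = 0.244), at 2.15 ± 0.704 CPM against 1.93 ± 1.22 CPM in untreated PANC1. The OVOL2 libraries without M2rtTA, and those of PANC1 with it, therefore carry their label without support from OVOL2 counts, and whether 3′-end counting captures the transduced transcript was not tested. Fewer expressing cells and less RNA per cell cannot be told apart in bulk libraries such as these.

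A group was taken as being at the detection floor when each of its 3 libraries had 3 counts or fewer, which is 0.641 CPM in the library of median depth. None of the 7 genes was at the floor in all 17 groups. ZEB1, ZEB2 and PRRX1 were at the floor in 0 groups, SNAI2 in 2, SNAI1 in 4, TWIST1 in 9 and TWIST2 in 11. TWIST1 never passed 9 counts in a library, summed to 124 counts over the 51 libraries, and had more than 3 counts in only 11 of them. It did not pass the filter on low counts in any fit and was tested only with no filter. There its OVOL2 changes over the lines were 0.21 without and 0.04 with M2rtTA on the log2 scale (edgeR unadjusted p = 0.743 and 0.943).

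OVOL2 was compared with mCherry as the mean over KP4, PANC1 and PK45H, with 6 of the 7 genes testable. Of these, 2 passed an adjusted p of 0.05 without M2rtTA, ZEB1 (lower) and SNAI1 (higher), where 18.1% of all genes tested passed. The same 2 genes passed with M2rtTA, in the same directions, where 32.9% of all genes tested passed. The 2 arms have separate mCherry controls. None of the 6 tested genes passed the test of a difference in the OVOL2 effect between the 3 lines: 0 passed without M2rtTA against a background of 2.74%, and 0 with M2rtTA against 7.56% (edgeR test with 2 degrees of freedom, 0 at unadjusted p under 0.05 in both). Counts were too low for a test of SNAI1 within PK45H, SNAI2 within KP4 and PANC1, TWIST2 within KP4 and PK45H, and PRRX1 within PANC1 and PK45H. For these genes the test between lines had little power and does not show a shared effect.

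**Figure D1:**
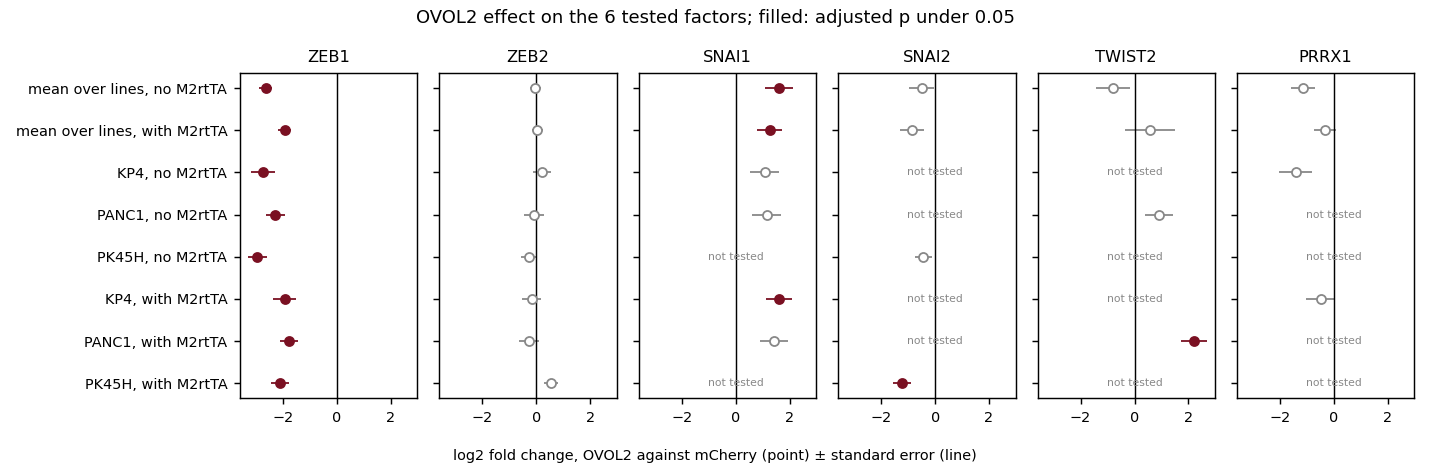
Log2 fold change of OVOL2 against mCherry (x axis, point, with its standard error as a line) for each tested factor, as the mean over lines and within each line. Filled points passed an edgeR adjusted p of 0.05: ZEB1 is filled in all 8 comparisons (left of 0), SNAI1 in 3 (right of 0), SNAI2 in 1 (left), TWIST2 in 1 (right), and ZEB2 and PRRX1 in 0.

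ZEB1, the zinc-finger repressor that lies at 10:31318417-31529804 (GRCh38.p14), fell in every line and in both arms. In KP4 it stood at 18.2, 22.8 and 20.7 CPM in the mCherry libraries and at 4.12, 2.85 and 2.19 CPM in the OVOL2 libraries. With M2rtTA the KP4 values were 16.8, 17.1 and 24.3 CPM with mCherry against 5.53, 7.92 and 1.02 CPM with OVOL2. The OVOL2 and mCherry libraries of KP4 did not overlap in either arm.

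In PANC1, ZEB1 was at 23.6, 15.2 and 23.0 CPM with mCherry and at 4.83, 5.07 and 2.62 CPM with OVOL2. With M2rtTA the PANC1 values were 20.2, 25.2 and 11.2 CPM with mCherry against 7.31, 4.59 and 4.46 CPM with OVOL2. The same separation was seen in PANC1, where mCherry + M2rtTA replicate 3 was the lowest control of all 3 lines.

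In PK45H, ZEB1 was at 18.9, 33.7 and 16.1 CPM with mCherry and at 1.89, 3.37 and 3.53 CPM with OVOL2. With M2rtTA the PK45H values were 23.5, 20.7 and 21.6 CPM with mCherry against 3.84, 5.43 and 5.92 CPM with OVOL2. Over the 3 lines, every one of the 18 OVOL2 libraries was below every mCherry library. The share of all genes that separate in this way was not counted, for this or any other separation given here.

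Over the 3 lines ZEB1 changed by a log2 fold change of -2.64 without M2rtTA (SE 0.24, edgeR adjusted p = 1.74e-10), a level 0.160 times that of mCherry. With M2rtTA the change was -1.95 (SE 0.22, edgeR adjusted p = 1.44e-08), or 0.260 times mCherry. The change of the OVOL2 effect with M2rtTA was 0.70 for ZEB1 (SE 0.32, edgeR adjusted p = 0.203, unadjusted p = 0.0389), so the smaller fall with M2rtTA did not pass. Among the 6 genes, 0 passed that test, against 7.72% of all genes, with 0 in DESeq2 also, and only ZEB1 had an unadjusted p under 0.05. Over the lines, OVOL2 counts passed the test only in the arm with M2rtTA, and ZEB1 fell in both. The summed CPM of the ductal markers was higher with OVOL2 in 2 lines. Without M2rtTA the sums were 1077 to 1231 CPM with OVOL2 against 800 to 854 CPM with mCherry in KP4. In PK45H they were 4384 to 4767 CPM against 2660 to 3065 CPM. In PANC1 they overlapped, at 2371 to 2659 CPM against 2266 to 2712 CPM. With M2rtTA the ductal sums were 988 to 1079 CPM against 655 to 661 CPM in KP4, 4693 to 4811 CPM against 1926 to 2062 CPM in PK45H, and overlapped in PANC1 (2013 to 2335 CPM against 2294 to 2625 CPM). KRT18, KRT7 and KRT8 held the most counts of this list (248337, 200257 and 122187 over the 51 libraries). Of its other genes, EPCAM rose over the lines with M2rtTA (log2 fold change 2.26, edgeR adjusted p = 6.14e-18) and MUC1 fell (-1.04, edgeR adjusted p = 5.13e-04). SOX9 did not pass with M2rtTA (0.10, edgeR adjusted p = 0.434). In PK45H the 4 acinar markers summed to 5.19 to 7.74 CPM with OVOL2 against 0 CPM in each mCherry library, and with M2rtTA to 4.97 to 6.73 CPM against at most 0.435 CPM. Of these 4, PRSS1 held 231 counts over the 51 libraries, with up to 43 in a library. CPA1, CELA3A and CTRB1 reached at most 4 counts each in a library. The part of these markers in the ZEB1 result was not tested.

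Within the lines, ZEB1 was the only one of the tested genes to pass in each line without M2rtTA: 1 of 4 in KP4, 1 of 4 in PANC1 and 1 of 3 in PK45H, where 6.82%, 5.08% and 8.39% of all genes passed. Its log2 fold changes there were -2.73 in KP4 (SE 0.45, edgeR adjusted p = 0.00246), -2.30 in PANC1 (SE 0.35, edgeR adjusted p = 0.00173) and -2.96 in PK45H (SE 0.34, edgeR adjusted p = 1.10e-04). With M2rtTA 2 genes passed in each line, where 22.4% of all genes passed in KP4, 13.9% in PANC1 and 15.9% in PK45H. ZEB1 then changed by -1.94 in KP4 (SE 0.43, edgeR adjusted p = 0.00495), by -1.77 in PANC1 (SE 0.34, edgeR adjusted p = 0.00302) and by -2.11 in PK45H (SE 0.32, edgeR adjusted p = 5.88e-04). Leaving out any 1 library kept each of these ZEB1 calls. Thinning every library to 1165399 counts, the smallest total, kept the direction but ended the calls within lines.

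**Figure D2:**
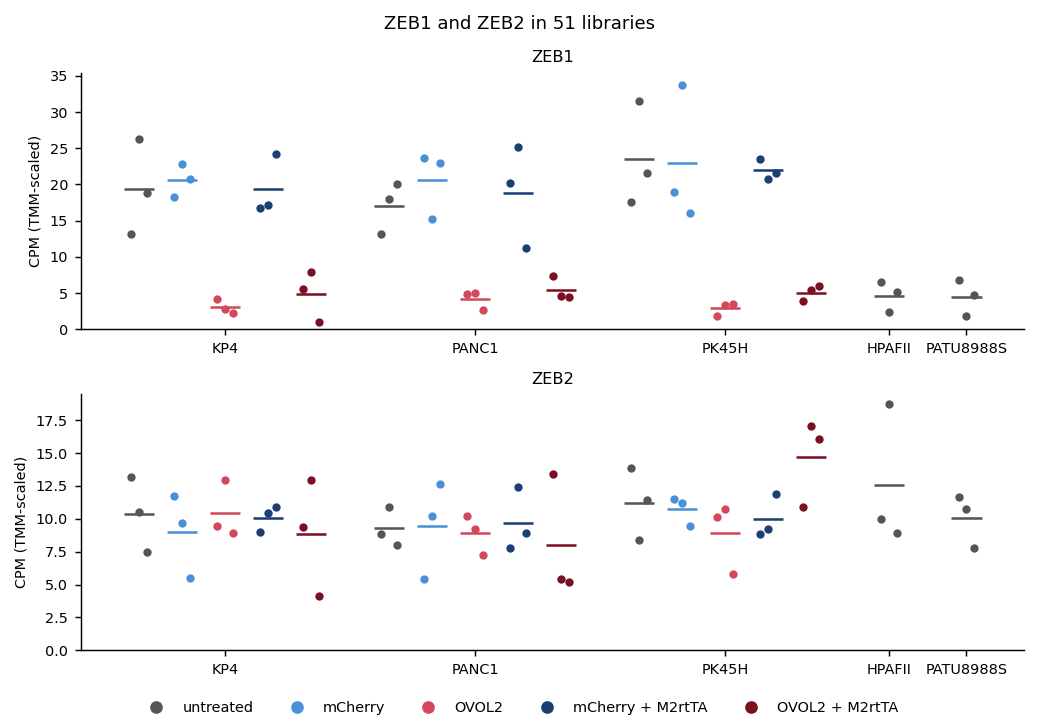
CPM of ZEB1 (upper panel) and ZEB2 (lower panel) in the 51 libraries, grouped by line on the x axis and coloured by treatment, with points for libraries and bars for group means. ZEB1 means lie between 17.1 and 23.5 CPM in untreated and mCherry groups of KP4, PANC1 and PK45H and between 2.93 and 5.45 CPM in their OVOL2 groups and in HPAFII and PATU8988S, while ZEB2 means lie between 8.00 and 14.7 CPM throughout.

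The ordered ZEB1 group means fell into a low and a high set. The low set ran from 2.93 ± 0.903 CPM in PK45H OVOL2 to 5.45 ± 1.61 CPM in PANC1 OVOL2 + M2rtTA, and held the 6 OVOL2 groups with untreated HPAFII (4.64 ± 2.10 CPM) and PATU8988S (4.48 ± 2.52 CPM). The high set ran from 17.1 ± 3.59 CPM in untreated PANC1 to 23.5 ± 7.15 CPM in untreated PK45H. Neighbours within a set differed by less than the larger of their SDs. None of the 6 tested genes passed in the comparisons of the controls. Against untreated cells 0 passed for mCherry (background 0.489%), and against mCherry 0 passed for mCherry + M2rtTA (background 0.0602%), with 0 at an unadjusted p under 0.05 in edgeR and 0 passing in DESeq2 for both.

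ZEB1-AS1, a long noncoding RNA read from the opposite strand beside ZEB1, was measured for reference because the strand used in counting is not given in the sources used here. Without M2rtTA it was lower with OVOL2 by a log2 fold change of -1.15 over the lines (SE 0.31, edgeR adjusted p = 0.00658). Within lines in that arm it passed in PK45H (-2.36, edgeR adjusted p = 0.00408). It did not pass in KP4 (-0.61, edgeR adjusted p = 0.474) or PANC1 (-0.53, edgeR adjusted p = 0.747). With M2rtTA its change of -0.45 did not pass (edgeR adjusted p = 0.230). Its counts were 1 to 32 per library against 3 to 187 for ZEB1, and reads of this pair cannot be told apart where they overlap.

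ZEB2, the paralog of ZEB1 (2:144384081-144520119), had 16 to 84 counts in every library and did not pass in any OVOL2 comparison. In KP4 it was at 11.8, 9.66 and 5.52 CPM with mCherry and at 9.47, 12.9 and 8.92 CPM with OVOL2. In PK45H with M2rtTA, where its OVOL2 mean was highest, it was at 10.9, 17.1 and 16.1 CPM against 8.86, 9.25 and 11.9 CPM with mCherry. OVOL2 and mCherry libraries overlapped in both sets. Over the lines its log2 fold change was -0.04 without M2rtTA (SE 0.20, edgeR adjusted p = 0.926) and 0.03 with M2rtTA (SE 0.20, edgeR adjusted p = 0.920), with a sign that turned in single left-out libraries.

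The count ratio of ZEB1 to ZEB2 within a library, a measure chosen after the values were seen, needs no scaling between libraries and compares libraries rather than the 2 genes. It ran from 1.26 to 4.38 in the mCherry libraries of the 3 lines and from 0.186 to 0.864 in the OVOL2 libraries. The mean log2 ratio was lower with OVOL2 by 2.63 over the lines without M2rtTA (OVOL2 minus mCherry, -2.63) and the difference was -2.01 with M2rtTA. The 2 ranges did not overlap.

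SNAI1 encodes Snail, a zinc-finger repressor of CDH1, and lies at 20:49982980-49988886. It was low everywhere and near absent in PK45H, HPAFII and PATU8988S. Without M2rtTA, KP4 gave 1.77, 1.23 and 0.230 CPM with mCherry and 3.21, 1.71 and 2.19 CPM with OVOL2. PANC1 gave 0.225, 1.33 and 1.84 CPM with mCherry and 2.68, 2.30 and 2.82 CPM with OVOL2. The groups overlapped in KP4 and not in PANC1.

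With M2rtTA, SNAI1 was at 3.36, 1.53 and 2.13 CPM with mCherry and at 6.03, 5.23 and 10.8 CPM with OVOL2 in KP4. In PANC1 with M2rtTA it was at 1.56, 1.16 and 2.29 CPM with mCherry and at 2.92, 4.88 and 5.17 CPM with OVOL2. In both lines each OVOL2 + M2rtTA library was above each mCherry + M2rtTA library. PK45H had 0, 1 and 0 counts with mCherry and 1, 5 and 4 counts with OVOL2, and with M2rtTA 0, 4 and 0 counts against 4, 0 and 1 counts.

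Over the lines SNAI1 was higher with OVOL2 by a log2 fold change of 1.60 without M2rtTA (SE 0.52, edgeR adjusted p = 0.0292) and of 1.26 with M2rtTA (SE 0.48, edgeR adjusted p = 0.0410). PK45H entered both means with few counts, and its mCherry group without M2rtTA was at the floor. With a prior count of 0.5 the log2 fold changes were 1.38 and 1.18. Over KP4 and PANC1 alone, a mean added after seeing the data, the change was 1.12 without M2rtTA (edgeR adjusted p = 0.116), which ended the call, and 1.52 with M2rtTA (edgeR adjusted p = 0.00758). Within lines SNAI1 passed only in KP4 with M2rtTA, at 1.62 (SE 0.48, edgeR adjusted p = 0.0249). The other changes were 1.07 in KP4 without M2rtTA (edgeR adjusted p = 0.290), and in PANC1 1.15 without (edgeR adjusted p = 0.270) and 1.41 with M2rtTA (SE 0.51, edgeR adjusted p = 0.0856).

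Single libraries decided the SNAI1 calls. Without M2rtTA the mean over lines lost its call when KP4 mCherry replicate 3, KP4 OVOL2 replicate 1, PK45H mCherry replicate 1 or 3, or PK45H OVOL2 replicate 2 or 3 was left out (edgeR adjusted p from 0.0503 to 0.0806). With M2rtTA it was lost without KP4 mCherry + M2rtTA replicate 2 or 3, KP4 OVOL2 + M2rtTA replicate 3, PANC1 mCherry + M2rtTA replicate 1 or 2, PANC1 OVOL2 + M2rtTA replicate 2 or 3, PK45H mCherry + M2rtTA replicate 1 or 3, or PK45H OVOL2 + M2rtTA replicate 1 (edgeR adjusted p from 0.0568 to 0.480). Leaving out PK45H OVOL2 + M2rtTA replicate 1 lowered the log2 fold change to 0.78, and leaving out the lone PK45H library with SNAI1 counts in the control raised it to 2.35 in either arm (mCherry replicate 2, mCherry + M2rtTA replicate 2). The KP4 call with M2rtTA was lost without mCherry + M2rtTA replicate 2 or 3 or OVOL2 + M2rtTA replicate 3 (edgeR adjusted p from 0.0758 to 0.113).

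SNAI2 encodes Slug, the second Snail-family repressor. It was well above the floor in PK45H and HPAFII: untreated counts were 40, 58 and 72 in PK45H and 32, 6 and 48 in HPAFII, against 0, 10 and 2 in KP4, 2, 5 and 1 in PANC1 and 0, 1 and 0 in PATU8988S. The PK45H libraries were above every library of KP4, PANC1 and PATU8988S. In PK45H with M2rtTA it was at 9.75, 9.81 and 10.6 CPM with mCherry and at 5.66, 4.66 and 2.37 CPM with OVOL2, without overlap.

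This fall in PK45H had a log2 fold change of -1.23 (SE 0.32, edgeR adjusted p = 0.0193), or 0.426 times mCherry. In the same PK45H libraries the ductal and acinar sums given above were higher with OVOL2. The sums of leukocyte markers (5.69 to 9.94 CPM against 2.90 to 3.69 CPM) and of fibroblast markers (30.5 to 37.6 CPM against 12.4 to 15.9 CPM) were also higher. Over the 51 libraries LYZ held 744 counts, the most of the leukocyte genes, and COL1A1 3971, the most of the fibroblast genes. The part of these markers in the SNAI2 result was not tested. The fall did not pass without mCherry + M2rtTA replicate 3 (edgeR adjusted p = 0.0553) or without OVOL2 + M2rtTA replicate 3 (edgeR adjusted p = 0.0728). Without M2rtTA, PK45H gave 6.87, 7.37 and 10.6 CPM with mCherry and 4.72, 5.05 and 8.93 CPM with OVOL2, which overlapped, and the change was -0.44 (edgeR adjusted p = 0.438). Over the lines the changes were -0.50 without and -0.85 with M2rtTA (edgeR adjusted p = 0.510 and 0.150). KP4 and PANC1 entered both means with at most 9 SNAI2 counts in a library, too few for a test within either line. The PANC1 OVOL2 group without M2rtTA was at the floor.

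**Figure D3:**
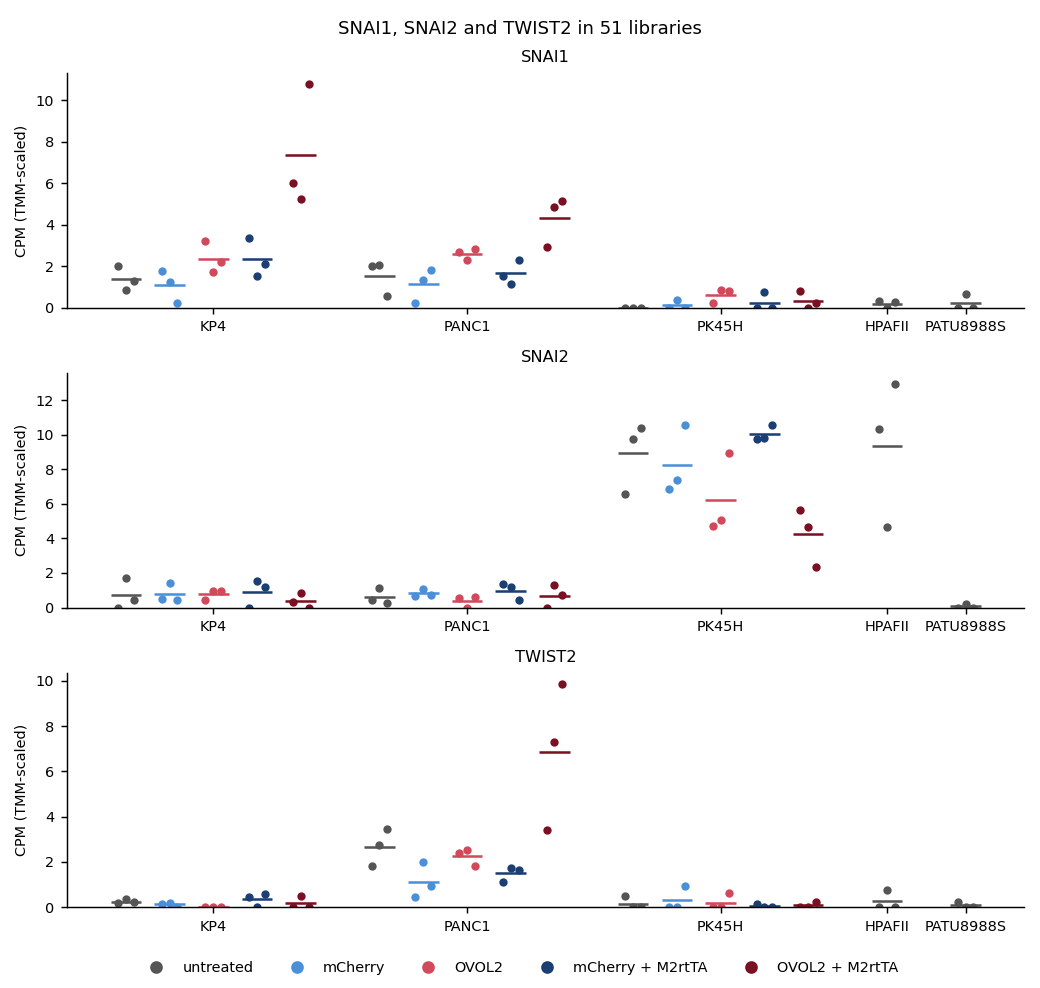
CPM of SNAI1, SNAI2 and TWIST2 (panels from top) in the 51 libraries, grouped by line on the x axis and coloured by treatment, with points for libraries and bars for group means. SNAI1 is highest in OVOL2 + M2rtTA cells of KP4 (7.34 CPM) and PANC1 (4.32 CPM), SNAI2 is seen mainly in PK45H and HPAFII, and TWIST2 is highest in PANC1 OVOL2 + M2rtTA (6.86 CPM).

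TWIST1, a basic helix-loop-helix factor (7:19113047-19117636), stayed near the floor in all lines. Its group means were 0.176 ± 0.163 CPM in KP4 mCherry at the low end and 0.870 ± 0.631 CPM in KP4 OVOL2 + M2rtTA at the high end. Those KP4 OVOL2 + M2rtTA libraries had 5, 9 and 1 counts. No difference in TWIST1 passed at this depth in the tests run with no filter.

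TWIST2, its paralog (2:238848085-238910534), had more than 3 counts in every library of a group only in PANC1, in all of its groups but mCherry. PANC1 counts were 8, 12 and 12 untreated, 2, 15 and 5 with mCherry and 9, 11 and 9 with OVOL2. With M2rtTA they were 5, 9 and 8 with mCherry and 14, 51 and 42 with OVOL2, or 1.11, 1.74 and 1.66 CPM against 3.41, 7.31 and 9.86 CPM. Each OVOL2 + M2rtTA library was above each mCherry + M2rtTA library, and replicate 1 was below the highest untreated one (3.45 CPM).

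In PANC1 with M2rtTA the TWIST2 rise had a log2 fold change of 2.20 (SE 0.48, edgeR adjusted p = 0.00749), or 4.60 times mCherry, in libraries where OVOL2 itself did not pass. The call held without each library of the 2 groups in turn (log2 fold change 1.88 to 2.52). Without M2rtTA the PANC1 change was 0.90 (SE 0.53, edgeR adjusted p = 0.392), and the difference between the arms within PANC1 was not tested. Over the 3 lines TWIST2 did not pass, with log2 fold changes of -0.80 without and 0.58 with M2rtTA (edgeR adjusted p = 0.426 and 0.678). The first of these depends on the prior count, being -0.29 with a prior count of 0.5, and KP4 OVOL2 had 0 counts in its 3 libraries.

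The summed CPM of a list of fibroblast markers was higher in the OVOL2 + M2rtTA libraries of all 3 lines, including those of the SNAI1 and TWIST2 rises. The 7 genes of that list (DCN, LUM, COL1A1, COL1A2, COL3A1, PDGFRA and PDGFRB) were all in the table and summed to 45.01 to 55.1 CPM in KP4 OVOL2 + M2rtTA against 23.2 to 32.3 CPM in KP4 mCherry + M2rtTA. In PANC1 the sums were 51.2 to 66.9 CPM against 29.4 to 38.8 CPM, and in PK45H 30.5 to 37.6 CPM against 12.4 to 15.9 CPM. SNAI1 and TWIST2 had at most 4 counts each in any of those PK45H libraries. Without M2rtTA the OVOL2 and mCherry sums overlapped, at 24.3 to 28.3 CPM against 22.8 to 28.7 CPM in KP4 and at 22.3 to 28.5 CPM against 25.8 to 28.6 CPM in PANC1. LUM was at 0 in 41 of the 51 libraries and PDGFRB in 26. COL1A1 itself was higher over the lines by a log2 fold change of 1.72 with M2rtTA (SE 0.14, edgeR adjusted p = 1.19e-11). COL1A2, on the same list, did not pass with M2rtTA (0.22, SE 0.25, edgeR adjusted p = 0.536). COL1A1 held 3971 counts over the 51 libraries and COL1A2, the next of the 7 genes, 946. The part of these markers in the SNAI1 and TWIST2 results was not tested.

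PRRX1, a homeobox factor tied to mesenchymal fate (1:170662768-170739421), had at most 18 counts in a library. In KP4 its counts were 8, 4 and 11 with mCherry and 4, 3 and 3 with OVOL2. In PK45H they were 1, 16 and 4 with mCherry and 4, 3 and 2 with OVOL2. Both pairs of groups overlapped.

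Without M2rtTA the PRRX1 change over the lines was -1.16 (SE 0.45, edgeR adjusted p = 0.0686), which did not pass, although DESeq2 called it (-1.20, adjusted p = 0.0381). It passed when PK45H mCherry replicate 1 or 3 was left out (edgeR adjusted p = 0.0237 and 0.0444), and without PK45H mCherry replicate 2 it was -0.54. With M2rtTA the change was -0.33 (edgeR adjusted p = 0.589). In KP4 alone the changes were -1.42 without and -0.49 with M2rtTA (edgeR adjusted p = 0.199 and 0.553).

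**Figure D4:**
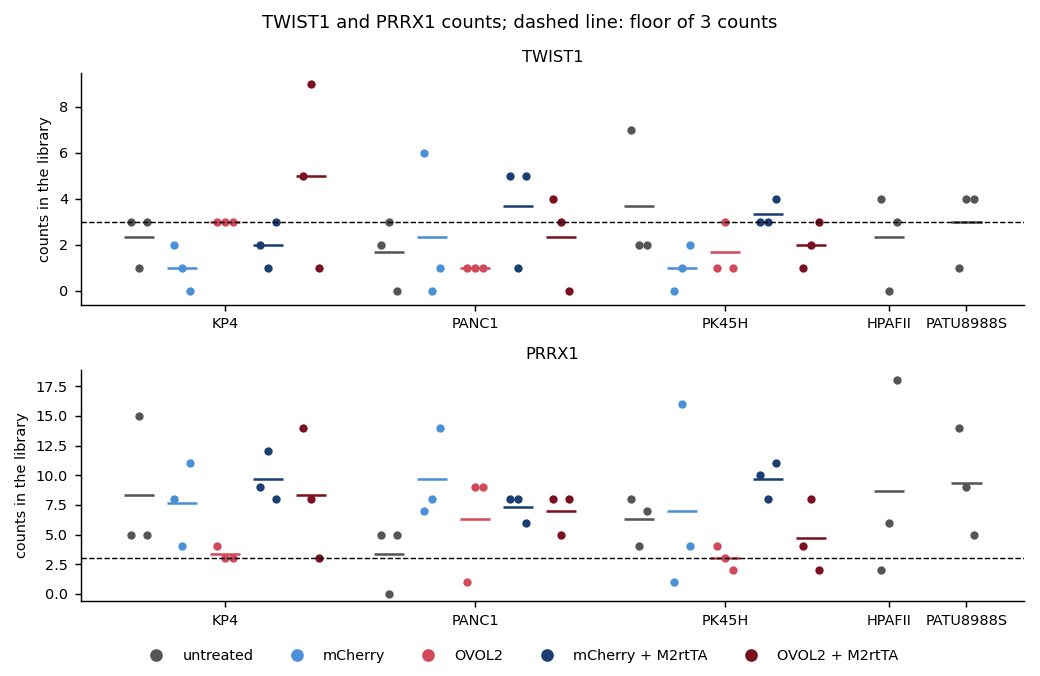
Counts of TWIST1 (upper panel) and PRRX1 (lower panel) in the 51 libraries, grouped by line on the x axis and coloured by treatment, with points for libraries, bars for group means and a dashed line at the floor of 3 counts. TWIST1 reaches at most 9 counts and PRRX1 at most 18.

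Untreated lines were compared next, with the mean of HPAFII and PATU8988S set against the mean of KP4, PANC1 and PK45H. ZEB1, SNAI2, ZEB2 and PRRX1 could be tested. ZEB1 was the 1 gene of these 4 that passed, where 34.8% of all genes tested passed. Its libraries stood at 6.47, 2.34 and 5.12 CPM in HPAFII and at 6.84, 1.83 and 4.78 CPM in PATU8988S. They stood at 13.2, 26.3 and 18.8 CPM in KP4, at 13.1, 18.004 and 20.1 CPM in PANC1 and at 17.6, 31.5 and 21.5 CPM in PK45H. The 2 sets did not overlap, and the log2 fold change was -2.05 (SE 0.28, edgeR adjusted p = 4.85e-05). HPAFII replicate 2, the shallowest library, had 3 ZEB1 counts.

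PRRX1 had the opposite sign, a log2 fold change of 1.35 (SE 0.50, edgeR adjusted p = 0.05003), just short of the threshold. It passed with RLE scaling (adjusted p = 0.0486), with robust dispersion (adjusted p = 0.0449), in DESeq2 (adjusted p = 0.0200), and without HPAFII replicate 1, KP4 replicate 2 or PANC1 replicate 3 in edgeR (adjusted p from 0.0175 to 0.0461). In the other settings run it did not pass (edgeR adjusted p up to 0.0781). Leaving out any other single library also gave no call, with a log2 fold change as low as 1.06 and an edgeR adjusted p up to 0.206. PRRX1 counts in HPAFII were 2, 6 and 18. ZEB2 changed by 0.10 (edgeR adjusted p = 0.727) and SNAI2 by -0.65 (edgeR adjusted p = 0.505), the latter with HPAFII and PATU8988S far apart.

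For any difference among the 5 untreated lines, 2 of the 4 genes passed, where 57.8% of all genes passed: ZEB1 (edgeR adjusted p = 3.30e-04) and SNAI2 (edgeR adjusted p = 3.03e-05). PRRX1 (edgeR adjusted p = 0.190) and ZEB2 (edgeR adjusted p = 0.828) did not. With no filter on low counts SNAI1 (edgeR adjusted p = 0.00902) and TWIST2 (edgeR adjusted p = 0.00574) also passed and TWIST1 (edgeR adjusted p = 0.897) did not. Counts of SNAI1 were 11, 5 and 6 in KP4, 9, 9 and 2 in PANC1, 0, 0 and 0 in PK45H, 1, 0 and 1 in HPAFII and 0, 3 and 0 in PATU8988S. Leukocyte markers summed to 14.8 to 31.8 CPM in HPAFII and 10.4 to 16.1 CPM in PATU8988S against at most 4.89 CPM in the other lines, and their part in these line differences was not tested. Of these markers LYZ held 744 counts over the 51 libraries and PTPRC, the next, 204.

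Patterns over the 17 groups were compared for the 6 factors that passed the filter. Pearson's r of group-mean log2 CPM between ZEB1 and the other factors ran from -0.27 (SNAI1) to 0.19 (PRRX1). Larger values were -0.71 for SNAI1 with SNAI2, -0.65 for ZEB2 with SNAI1, -0.54 for ZEB2 with TWIST2, 0.51 for ZEB2 with SNAI2, 0.49 for SNAI1 with TWIST2 and -0.40 for SNAI2 with TWIST2. Groups of a line share that line's background, so these values are descriptive. Among 10276 or 10277 genes with at least 5 CPM on average, those most like ZEB1 were ADSL (r = 0.94), LIX1L (0.94) and PRXL2C (0.92). Most opposed to it were BSPRY (-0.95) and KDF1 (-0.94). The genes most like the others were CRTC1 for SNAI1 (r = 0.96), GBP1 for SNAI2 (0.95), SUPT5H for TWIST2 (0.93), DIS3L for ZEB2 (0.80) and TSHR for PRRX1 (0.78).

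Genes that these factors act on or with were then counted from lists of their pathway. The lists, too, were chosen with earlier results of these data known. Of 23 tested epithelial genes that ZEB or SNAI proteins repress, 14 rose and 1 fell with OVOL2 without M2rtTA, where 9.32% of all genes rose and 8.81% fell. With M2rtTA 17 rose and 1 fell, where 15.7% of all genes rose and 17.3% fell. The list median was 1.23 without and 1.34 with M2rtTA on the log2 scale, against medians of 0.000979 and 0.03 over all genes tested. EPCAM, a cell adhesion protein, rose by 2.19 and 2.26 (SE 0.11 in both, edgeR adjusted p = 1.66e-17 and 6.14e-18). SPINT1, a membrane protease inhibitor, rose by 2.25 and 2.24 (edgeR adjusted p = 6.55e-11 and 1.52e-11).

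CDH1, the E-cadherin gene that ZEB and SNAI proteins repress, rose by 2.49 without and 2.52 with M2rtTA (SE 0.22 in both, edgeR adjusted p = 1.44e-10 and 2.27e-11). Its KP4 levels with M2rtTA were 3.97 ± 2.85 CPM with mCherry and 27.6 ± 1.76 CPM with OVOL2, while ZEB1 went from 19.4 ± 4.22 to 4.83 ± 3.50 CPM and SNAI1 from 2.34 ± 0.933 to 7.34 ± 2.99 CPM in the same libraries. ZEB1 moved against CDH1 in these libraries, and SNAI1 with it. The genes that fell, chosen after their values were seen, were MARVELD3 without M2rtTA (-3.01, edgeR adjusted p = 0.0148) and MUC1 with it (-1.04, edgeR adjusted p = 5.13e-04). MARVELD3 rose with M2rtTA (3.38, edgeR adjusted p = 0.00411), and its spread was larger than its mean in KP4 mCherry (495 ± 732 CPM) and in KP4 OVOL2 + M2rtTA (265 ± 405 CPM).

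Of 12 tested mesenchymal genes, 6 fell and 0 rose without M2rtTA, and 5 fell and 1 rose with it, against falls in 8.81% and 17.3% and rises in 9.32% and 15.7% of all genes. The list medians were -0.39 and -0.36, against 0.000979 and 0.03 over all genes. VIM, the intermediate filament vimentin, fell by 1.85 and 1.33 on the log2 scale (edgeR adjusted p = 2.13e-19 and 2.93e-16), and the integrin ITGA5 fell by 0.44 and 1.43 (edgeR adjusted p = 0.00949 and 2.21e-11). COL1A1 was the gene that rose with M2rtTA.

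**Figure D5:**
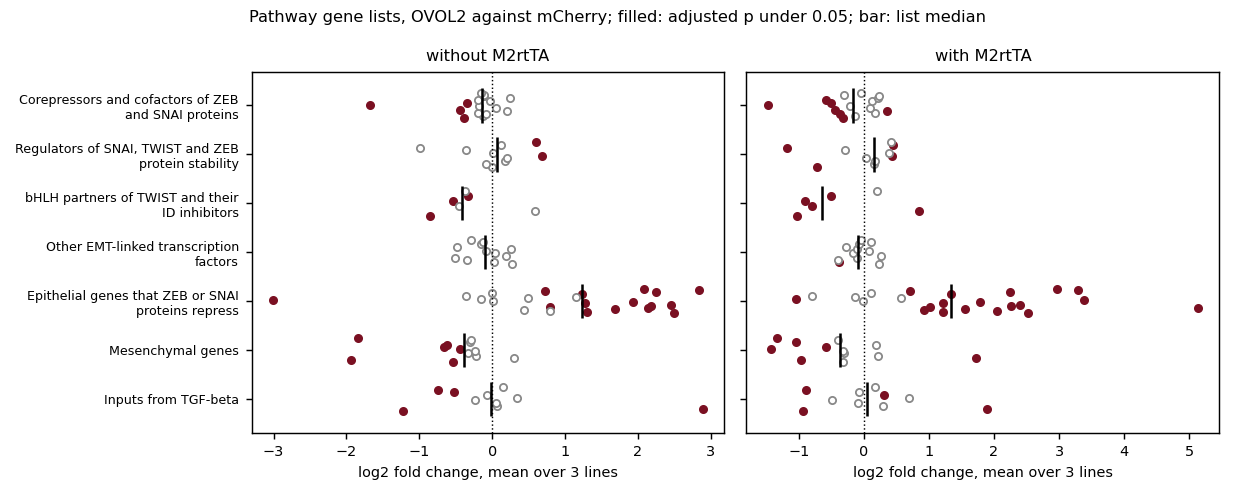
Log2 fold change of OVOL2 against mCherry, mean over 3 lines (x axis), for each gene of 7 pathway lists, without (left) and with M2rtTA (right), on separate x scales. Filled points passed an edgeR adjusted p of 0.05 and bars mark list medians, which are 1.23 and 1.34 for epithelial genes and -0.39 and -0.36 for mesenchymal genes.

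Corepressors and other cofactors of ZEB and SNAI proteins numbered 16 tested. Of these, 0 rose and 4 fell without M2rtTA, where 9.32% of all genes rose and 8.81% fell. With M2rtTA 1 rose and 6 fell, where 15.7% of all genes rose and 17.3% fell. KAT2B, an acetyltransferase that binds ZEB1, fell by 1.68 and 1.47 (edgeR adjusted p = 1.04e-05 and 1.46e-05), and EZH2, a histone methyltransferase, fell by 0.44 in both arms (edgeR adjusted p = 6.85e-04 and 2.66e-04). AJUBA fell by 0.39 without and 0.31 with M2rtTA (edgeR adjusted p = 0.00565 and 0.0130), and KDM1A by 0.34 and 0.51 (edgeR adjusted p = 0.0385 and 7.94e-04). The corepressor CTBP1 fell with M2rtTA by 0.36 (edgeR adjusted p = 7.12e-04), and its change without was -0.08 (edgeR adjusted p = 0.576).

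The bHLH partners of TWIST proteins and their ID inhibitors had 6 genes tested, of which 3 fell without M2rtTA, and 4 fell and 1 rose with it, where 8.81% of all genes fell without, and 17.3% fell and 15.7% rose with M2rtTA. The partners TCF3 and TCF12 fell by 0.50 and 0.90 with M2rtTA (edgeR adjusted p = 5.17e-06 and 4.44e-05) and by 0.33 and 0.54 without (edgeR adjusted p = 0.00292 and 0.0181). The inhibitor ID1 fell by 1.03 with and 0.85 without M2rtTA (edgeR adjusted p = 5.70e-06 and 2.68e-04), ID3 fell by 0.79 with M2rtTA (edgeR adjusted p = 3.99e-04), and ID2 rose by 0.85 with M2rtTA (edgeR adjusted p = 0.0113).

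Of 10 tested regulators of SNAI, TWIST and ZEB protein stability, 2 rose and 0 fell without M2rtTA, where 9.32% of all genes rose and 8.81% fell. With M2rtTA 2 rose and 2 fell, which is near the 15.7% and 17.3% of all genes. GSK3B, a kinase that marks Snail for degradation, rose by 0.68 and 0.43 (edgeR adjusted p = 0.00257 and 0.0387), with a wide spread in PK45H OVOL2 (97.0 ± 80.2 CPM). USP27X rose without M2rtTA by 0.61 (edgeR adjusted p = 0.0351). With M2rtTA the ubiquitin ligase subunit BTRC fell by 0.73 (edgeR adjusted p = 1.08e-04), SIAH1 rose by 0.45 (edgeR adjusted p = 0.00272), and PRKD1 fell by 1.19 (edgeR adjusted p = 0.0110).

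Of 12 other EMT-linked transcription factors, 0 passed without M2rtTA and 1 with it, where 18.1% and 32.9% of all genes passed. The 1 gene was FOSL1, which fell by 0.38 (edgeR adjusted p = 2.86e-04). Of 10 inputs from TGF-beta signalling, 1 rose and 3 fell without M2rtTA, where 9.32% of all genes rose and 8.81% fell. With M2rtTA 2 rose and 2 fell, near the 15.7% and 17.3% of all genes. The receptor TGFBR1 fell by 0.74 and 0.88 (edgeR adjusted p = 0.00223 and 1.31e-04). TGFB2 fell without M2rtTA by 0.52 (edgeR adjusted p = 0.0460) and TGFB1 rose with it by 0.32 (edgeR adjusted p = 8.24e-04). SKIL rose by 2.89 and 1.90 (edgeR adjusted p = 0.00570 and 0.0426), with single libraries far apart, as in PANC1 OVOL2 (175 ± 244 CPM).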

How the data were processed

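The authors deposited whole-number counts per gene symbol, one column per library, matched here to samples by the labels. The submitters' processing notes name kallisto 0.44.0 and the build GRCh38. Its role, the handling of molecular identifiers, the strand and any rounding are not given in the sources used here. The symbols SNAI1P1 and ZEB2P1 were not in the table, so reads shared with such copies may be counted under SNAI1 and ZEB2.

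Counts were tested in R 4.3.3 with edgeR 4.0.16: filterByExpr, TMM scaling and the quasi-likelihood test, two-sided, with Benjamini-Hochberg adjustment over all genes tested. One fit held the 45 libraries of KP4, PANC1 and PK45H, 1 fit the 15 libraries of each line, and 1 fit the 15 untreated libraries. CPM used TMM factors over all 51 libraries. Standard errors were derived from the test statistic. The script was tested on simulated data. The spread between libraries of a group was always larger than counting noise (lowest chi-square per degree of freedom 18.3), so all were kept as separate replicates.

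Named genes were the 7 factors, OVOL2 and CDH1 for reference, the 3 most similar and 2 most opposed genes by Pearson's r, and, from each list, the 3 smallest p-values with M2rtTA among genes that passed, or all where 5 or fewer passed. Of the similar genes to factors other than ZEB1, 1 each is given. One list gene that the rule names is not reported here. The factors and lists were chosen with earlier results of these data known. Alternatives were RLE scaling, no filter, DESeq2 1.42.0, only the groups compared, replicate number as a block, thinning, a prior count of 0.5, robust dispersion and leaving out each library.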

Additional observations from a re-analysis of the deposited data

How the results depend on the processing

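The ZEB1 calls over lines and in the untreated contrast held under every alternative run. Of 649 member values recomputed, 592 kept direction and side of the threshold, 31 lost the call, 10 gained one and 16 changed sign. Thinning to the smallest total left 1 of 7 genes called over lines in either arm, 0 within each line in either arm, and 1 for any difference among untreated lines. Thinned ZEB1 changes were -2.99 and -1.48 in KP4, -2.90 and -1.30 in PANC1, and -2.63 and -2.44 in PK45H (without, with M2rtTA). SNAI2 turned sign when thinned, to 0.92 over lines and 1.16 in PK45H, both without M2rtTA, and to 0.70 in untreated lines, and ZEB2 turned to -0.060 with M2rtTA. The cause of these turns was not tested, and thinning leaves fewer counts by construction. DESeq2 was not run for tests with more than 1 degree of freedom. The SNAI1 call over lines with M2rtTA was lost with no filter (1.25, edgeR adjusted p = 0.0616) and with only the groups compared (1.26, edgeR adjusted p = 0.0619), leaving 1 gene called in each. SNAI1 in PANC1 with M2rtTA passed in DESeq2 (adjusted p = 0.0493). In the untreated contrast 2 genes passed with RLE scaling, robust dispersion or DESeq2 in place of 1, and 4 passed among the 5 lines with no filter.

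Leaving out 1 library gave 1 to 2 genes called over lines in each arm, 1 to 2 in KP4 and in PK45H with M2rtTA, 1 to 2 in the untreated contrast and 2 to 3 for any difference among lines, where groups of 2 let more genes through the filter. The sign-changing ranges were -0.13 to 0.033 and -0.16 to 0.14 for ZEB2 over lines, -0.069 to 0.21 for ZEB2 untreated, and -1.87 to 0.51 and -0.45 to 1.13 for TWIST2 over lines. The replicate numbers did not pair the libraries: correlations of deviations from the group mean, over 18 same-numbered pairs of OVOL2 and mCherry libraries, ran from -0.128 to 0.119, and 4 of the 18 correlated best with their own number. With the replicate number as a block, 2 genes were called over lines in each arm, and no call changed.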
